A study of Mus musculus with 8 samples.

Results

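Expression of 10 genes of the insulin-like growth factor axis was followed across the resting and proliferative zones of the growth plate. These were IGF-1 itself (Igf1), its receptor (Igf1r), the receptor that binds IGF-2 and mannose 6-phosphate (Igf2r), the growth hormone receptor (Ghr) and 6 binding proteins (Igfbp2, Igfbp3, Igfbp4, Igfbp5, Igfbp6 and Igfbp7). They were taken by symbol from a table of 43629 genes, of which 17492 had at least 1 count. All 10 were found in the table, and 9 of them had a count in at least 1 library. The libraries came from 4 Axin2CreERT2;R26RTdTomato mice, in which tamoxifen lets Cre switch on the red fluorochrome TdTomato in cells that use the Axin2 gene. Each mouse received 3 daily injections of tamoxifen beginning on postnatal day 23 and was killed on day 30. Resting chondrocytes carrying TdTomato and unlabeled flattened proliferative chondrocytes at least 50 µm from the secondary ossification center were cut by laser from 8 µm frozen sections, and each mouse gave 1 library of each zone. Mice 1 and 2 were male and mice 6 and 13 were female. All 8 libraries shared the alleles and the tamoxifen, no library came from an uninjected mouse, and the labels name the tibia whereas the study's methods name the femur as well.

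IGF-1 is a secreted growth factor made in the liver and locally in bone and cartilage, largely under the control of growth hormone, and it drives chondrocyte proliferation and enlargement in the growth plate. It signals through the tyrosine kinase receptor encoded by Igf1r and the docking proteins of the IRS family to PI3K and Akt. The IGF-binding proteins hold the ligand in the circulation and in the matrix, and proteases that cut them set it free. The comparison asks in which of the 2 zones the ligand, the receptors and the binding proteins are transcribed.

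The sequences before the annotated starts are shown for the 3 members that differed between the zones and for Igf1r, the member that leaned the other way. They are the 250 bases upstream of the RefSeq start on GRCm38.p6, in the direction of transcription, at chr10:87860861-87861110 (plus strand, Igf1), chr11:99040994-99041243 (plus, Igfbp4), chr1:72874866-72875115 (minus, Igfbp5) and chr7:67952007-67952256 (plus, Igf1r). Capitals mark matches to TATAAA or GGGCGG on either strand.
Igf1: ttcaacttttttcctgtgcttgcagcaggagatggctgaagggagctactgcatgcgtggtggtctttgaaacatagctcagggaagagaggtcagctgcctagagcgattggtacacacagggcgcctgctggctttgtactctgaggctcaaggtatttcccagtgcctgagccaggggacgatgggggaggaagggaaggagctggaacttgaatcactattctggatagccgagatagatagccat
Igfbp4: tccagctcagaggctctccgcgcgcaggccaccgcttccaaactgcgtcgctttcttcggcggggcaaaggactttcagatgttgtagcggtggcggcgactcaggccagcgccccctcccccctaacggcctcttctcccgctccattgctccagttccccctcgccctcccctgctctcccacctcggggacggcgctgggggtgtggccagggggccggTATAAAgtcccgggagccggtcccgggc
Igfbp5: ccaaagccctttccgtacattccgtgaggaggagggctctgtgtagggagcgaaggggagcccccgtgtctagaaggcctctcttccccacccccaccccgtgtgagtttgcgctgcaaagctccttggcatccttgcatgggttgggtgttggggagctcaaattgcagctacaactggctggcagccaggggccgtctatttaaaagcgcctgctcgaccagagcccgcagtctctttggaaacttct
Igf1r: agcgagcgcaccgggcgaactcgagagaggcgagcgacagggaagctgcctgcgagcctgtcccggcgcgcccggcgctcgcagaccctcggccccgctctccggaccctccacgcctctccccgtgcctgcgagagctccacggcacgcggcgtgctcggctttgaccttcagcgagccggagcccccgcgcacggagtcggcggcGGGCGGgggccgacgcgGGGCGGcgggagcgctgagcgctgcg

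The windows of Igf1 and Igfbp5 held neither motif and that of Igfbp4 held 1 TATAAA, at position -28 from the start. The window of Igf1r held 2 GGGCGG matches, at -43 and -26. Among the 32851 RefSeq promoter windows of 300 bases (250 before to 50 after the start), 13.62% held TATAAA and 35.66% held GGGCGG. The letters TTCNNNGAA, the form bound by STAT5 downstream of the growth hormone receptor, occurred in 8.298% of all windows and in no window of the 10 members. The 4 printed stretches differed in base composition, with 52.8% G or C for Igf1, 58.8% for Igfbp5, 69.2% for Igfbp4 and 77.6% for Igf1r. These matches describe the letters in a short window and say nothing of binding.

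In the genome the 10 genes are spread over 7 chromosomes. Igf1 spans chr10:87858265-87937042 on the plus strand, with 9904 exonic bases in GENCODE M21. Igfbp2 and Igfbp5 lie tail to tail on chromosome 1, on the plus and minus strands, 5457 bases apart. Igfbp3 lies on chromosome 11, 3539 bases from Igfbp1, which had no count in these libraries. Igfbp4 lies elsewhere on chromosome 11, at 99041244 to 99054392.

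The libraries held few counts assigned to genes, with totals of 192882 to 462044 (resting) and 249284 to 631474 (proliferative). Levels are given as CPM, the counts of a gene scaled to the TMM-adjusted size of its library. A count of 0 allows a level of up to 3 counts, which was 4.81 to 14.7 CPM depending on the library. The test was edgeR's quasi-likelihood test with the mouse as a block, and a gene was called at a Benjamini-Hochberg adjusted p below 0.01 with a log2 fold change beyond 1 in either direction. Log2 fold changes are resting over proliferative. Of the 3793 genes with enough counts to be tested, 10.2% were called with the resting zone higher and 6.06% with the proliferative zone higher. Of the 5 members that were tested, 3 were called higher in the resting zone (Igf1, Igfbp4 and Igfbp5), and 0 were called in the other direction by edgeR or DESeq2 or had an unadjusted p below 0.05 there. Igf1, Igfbp4 and Igfbp5 passed the filter through their resting libraries, since the proliferative libraries alone were too low to pass it, so a difference was built into their selection and the count is a description only. In dissected tissue, fewer cells that transcribe a gene and less RNA per cell cannot be told apart.

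Igf1, the ligand, was high in every resting library and close to absent in the proliferative zone. The resting libraries of mice 1, 2, 6 and 13 held 17, 15, 40 and 25 counts, and the proliferative libraries held 2, 0, 2 and 0. In CPM these were 51.6, 47.6, 79.6 and 123 in the resting zone, against 3.88, 0, 3.20 and 0. The zones did not overlap, and the lowest resting library lay far above the highest proliferative library. The resting mean was 75.4 ± 34.6 CPM and the proliferative mean 1.77 ± 2.06 CPM (SD, n = 4 mice). The fitted log2 fold change was 4.94 (SE 0.72, edgeR quasi-likelihood adjusted p = 0.000637), and the gene was higher in the resting zone in 4 of 4 mice. Since the proliferative zone held 4 Igf1 counts in all, the size of the fold is loosely known. The ratio of the summed counts per scaled library size was 35.3, with an exact 95% interval of 13.3 to 132 that covers counting error only. Without mouse 1 the log2 fold change was 5.57.

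Igfbp4, a binding protein that mostly restrains IGF action, followed the same direction. Its resting libraries held 64, 66, 47 and 22 counts in the order of mice 1, 2, 6 and 13, and its proliferative libraries 17, 2, 1 and 2. The levels were 194, 209, 93.5 and 108 CPM in resting and 33.0, 3.42, 1.60 and 8.29 CPM in proliferative cartilage. The proliferative library of mouse 1 stood above the other proliferative libraries but well below every resting library. The means were 151 ± 58.96 and 11.6 ± 14.6 CPM (SD, n = 4), with a log2 fold change of 4.07 (SE 0.60, edgeR quasi-likelihood adjusted p = 0.000637). The value depended on the proliferative libraries. It was 5.09 without mouse 1, and without the block it was 3.68 with all libraries, 5.19 without the proliferative library of mouse 1 and 3.15 without that of mouse 6. The gene was called in each of these fits.

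Igfbp5, a binding protein that attaches to extracellular matrix and is abundant in bone, was likewise higher in every resting library than in any proliferative library. The resting libraries held 31, 64, 37 and 23 counts and the proliferative libraries 4, 0, 0 and 2. In CPM the resting zone showed 94.2, 203, 73.6 and 113 and the proliferative zone 7.77, 0, 0 and 8.29. The zones were again separate, with the resting library of mouse 2 the highest. The means were 121 ± 57.0 and 4.02 ± 4.64 CPM (SD, n = 4), for a log2 fold change of 5.09 (SE 0.77, edgeR quasi-likelihood adjusted p = 0.000747). The ratio of summed counts was 37.6, with a counting interval of 16.9 to 104. Leaving out mouse 1 gave a log2 fold change of 6.10 and leaving out mouse 2 gave 4.29, both still called. Without the block, the proliferative library of mouse 1 moved it to 5.99 when left out and that of mouse 6 to 4.49, against 5.10 with all libraries.

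**Figure D1:**
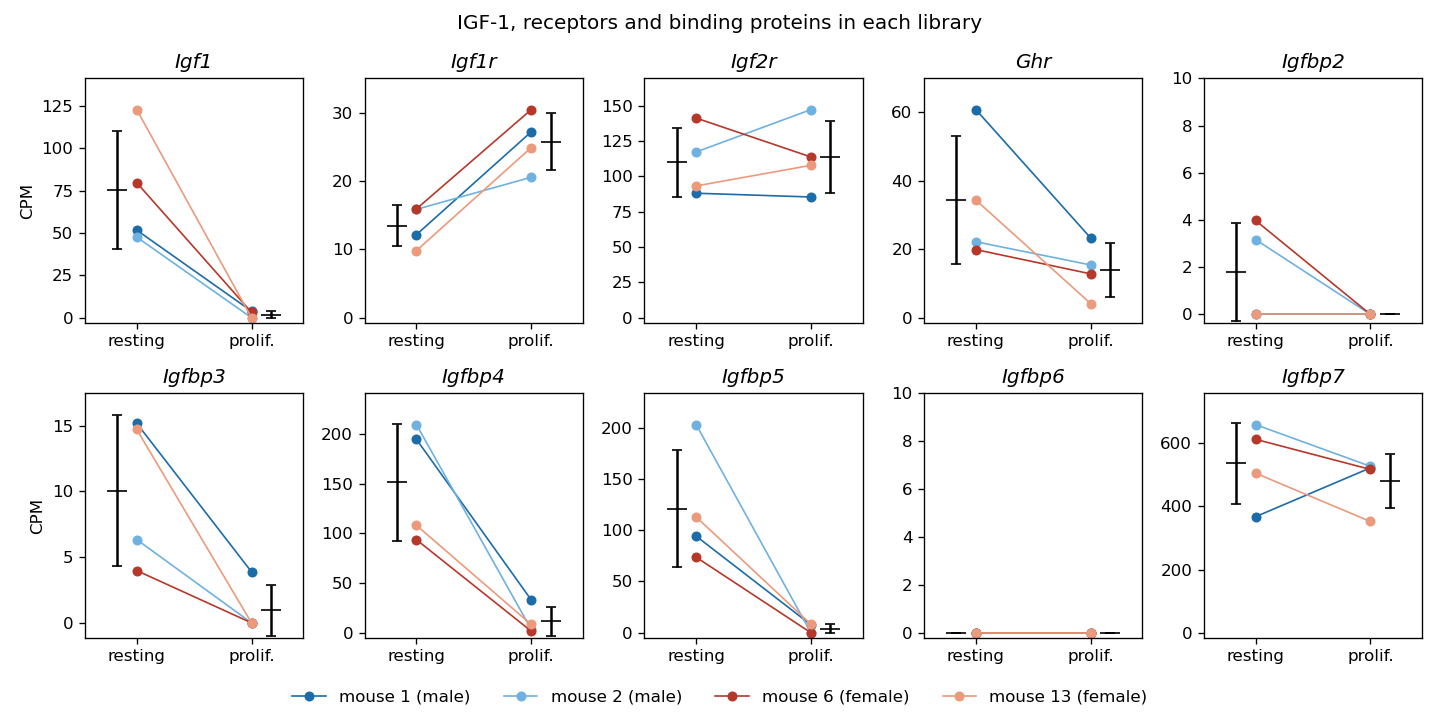
Level of each member (CPM, linear axes that differ between panels) in the resting and proliferative library of each mouse, joined by a line, with the mean ± SD of the 4 libraries in black. Igf1, Igfbp4 and Igfbp5 fall from 47.6 CPM or more in every resting library to 33.0 CPM or less in every proliferative library, Igf1r is higher in the proliferative library of each mouse, and Igf2r and Igfbp7 overlap between the zones.

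Complete separation of the zones with the resting zone higher was found for 3 of the 5 tested members, and for 17.8% of all tested genes. The median log2 fold change of the 5 was 4.07, beside 0.04 over all genes tested. Both values depend on how Igf1, Igfbp4 and Igfbp5 passed the filter, and neither was tested.

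RNA of other tissues moved with the same contrast. The resting libraries carried less of the chondrocyte markers: 9 of 12 were called lower there and 0 higher, and their summed level was 7490 to 19593 CPM there against 34496 to 59380 CPM in the proliferative zone. Of 10 osteoblast and osteocyte markers, 5 were tested and 3 were called higher in the resting zone, with sums of 9757 to 37507 CPM against 654 to 4050 CPM. Of 9 osteoclast markers, 6 were tested and 5 were called higher, with sums of 1613 to 4755 CPM against 78.8 to 487 CPM. All 8 tested neutrophil markers and all 8 erythroid markers were called higher in the resting zone. With 0 counts in 2 proliferative libraries they could not pass the filter without resting libraries, so a difference was built into their selection too. The marker counts are descriptions, beside 10.2% of all tested genes called higher in the resting zone and 6.06% called higher in the proliferative zone.

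The proliferative libraries of mice 6 and 13 held 0 counts of any of the 9 neutrophil and 8 erythroid markers, whereas those of mice 1 and 2 summed to 561 and 106 CPM for the neutrophil list. Among the macrophage markers 4 of 5 tested were called higher in the resting zone (sums 1114 to 1321 against 199 to 528 CPM), among the marrow stroma markers 1 of 3 (209 to 523 against 16.6 to 87.4 CPM), and among the perichondrium and fibroblast markers 2 of 3 (498 to 787 against 141 to 202 CPM). Both tested B lymphoid markers were called higher (sums 137 to 276 against 3.20 to 23.3 CPM), and the 10 endothelial markers summed to 250.3 to 358 against 78.8 to 146 CPM. The 1 endothelial marker that passed the filter (Eng) was not called, with a log2 fold change of -0.07. Of the other 9, 5 were called higher in the resting zone when a second fit took in each of the 17492 genes that held a count, namely Pecam1, Cdh5, Kdr, Flt1 and Emcn, which were named after their values were seen. Over all cell type lists that fit called 15 of the 42 markers outside the filter with the resting zone higher and 1 with the proliferative zone higher. Of all genes in that fit, 6.31% were called in either direction. Of 6 markers of prehypertrophic cells, 5 were tested and 3 were called higher in the proliferative zone, with sums of 98.3 to 460 CPM against 1301 to 2037 CPM. Panx3 and Col10a1 were too low in the resting libraries alone to pass the filter. Too low in the proliferative libraries alone were Ibsp and the called macrophage, marrow stroma, perichondrium and fibroblast, B lymphoid and osteoclast markers. These counts are descriptions too, beside 10.2% (resting) and 6.06% (proliferative) of all tested genes. Collagen II (Col2a1), the main collagen of cartilage, was present in both zones at 5942 ± 1817 and 15310 ± 4544 CPM, and collagen I (Col1a1), the main collagen of bone, at 15162 ± 8474 and 798 ± 967 CPM (SD, n = 4). The proliferative library of mouse 1, in which Igfbp4 was highest of the 4, also had the highest sums of that zone for the osteoblast, osteoclast, macrophage, neutrophil, erythroid, B lymphoid, marrow stroma and endothelial lists. The perichondrium and fibroblast list was highest in that of mouse 2 (202 CPM, against 157 in mouse 1). Igf1 was also highest in that of mouse 1 (3.88 CPM), whereas Igfbp5 was highest in that of mouse 13 (8.29 CPM, against 7.77 in mouse 1). The part of these cells in the difference of Igf1, Igfbp4 and Igfbp5 was not tested.

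**Figure D2:**
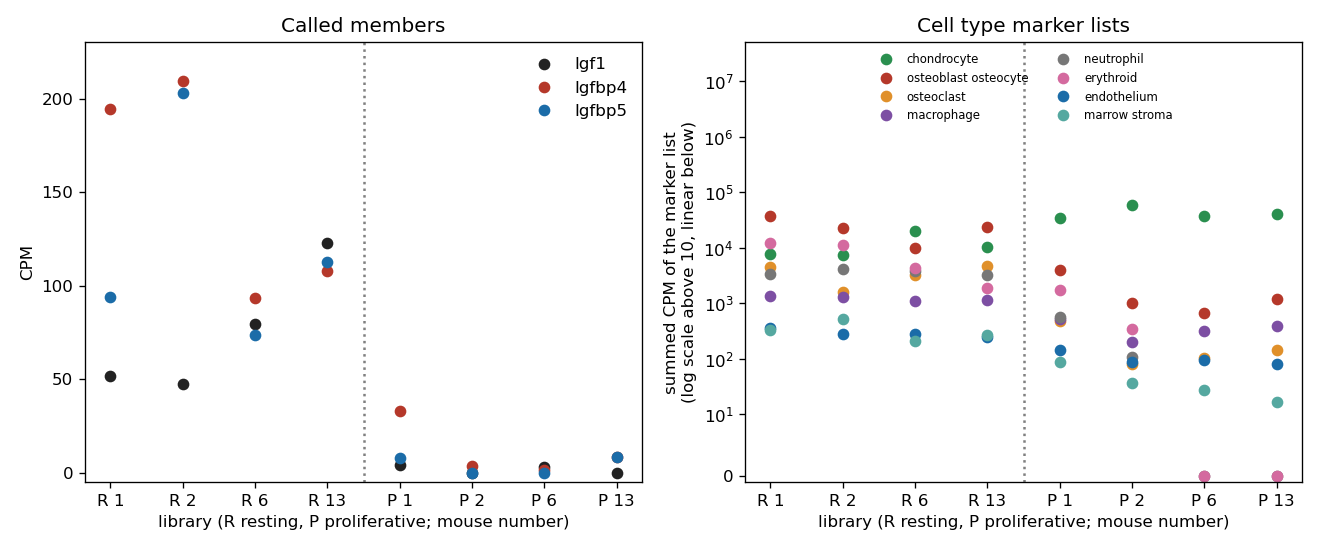
Left, level of the 3 called members (CPM, linear axis) in each library; right, summed CPM of 8 cell type marker lists in the same libraries on an axis that is logarithmic above 10 and linear below. The members and the bone and blood lists are higher in the resting libraries (R), the chondrocyte list is higher in the proliferative libraries (P), and the neutrophil and erythroid points of P 6 and P 13 coincide at 0.

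Of the 3 receptor genes, 0 were called. Igf1r, the signaling receptor for IGF-1, failed the count filter and was read from the second fit. Its resting libraries held 4, 5, 8 and 2 counts in mice 1, 2, 6 and 13, and its proliferative libraries 14, 12, 19 and 6. The levels were 12.2, 15.9, 15.9 and 9.81 CPM in resting cartilage and 27.2, 20.5, 30.4 and 24.9 CPM in proliferative cartilage. Every proliferative library was above every resting library, which was the case for 4.98% of the 17492 genes. Most of these genes failed the count filter, and a gene with a count of 0 in any proliferative library cannot separate in this direction. The share among genes of a depth like that of Igf1r was not worked out. The means were 13.4 ± 2.99 and 25.8 ± 4.16 CPM (SD, n = 4), which gave a log2 fold change of -1.13 (SE 0.70, edgeR quasi-likelihood adjusted p = 0.481). With the scaling factors of the tested genes it was -0.91 (adjusted p = 0.659). The difference was thus in the same direction in 4 of 4 mice but did not pass the test at this depth.

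Igf2r, which carries IGF-2 and lysosomal enzymes to the lysosome, was the best covered receptor gene, at near-equal means in the 2 zones. The resting levels were 88.1, 117, 141 and 93.2 CPM and the proliferative levels 85.4, 147, 114 and 108 CPM. The zones overlapped, and the resting zone was higher in 2 of 4 mice. The means were 110 ± 24.4 and 114 ± 25.6 CPM (SD, n = 4), with a log2 fold change of -0.04 (SE 0.31, edgeR quasi-likelihood adjusted p = 0.948). The antisense transcript Airn lies across the start of Igf2r without sharing exon bases, and held 38 and 67 counts in the 2 zones.

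Ghr, the receptor through which growth hormone induces Igf1, also failed the filter. It held 20, 7, 10 and 7 counts in the resting libraries and 12, 9, 8 and 1 in the proliferative libraries. The levels were 60.8, 22.2, 19.9 and 34.4 CPM against 23.3, 15.4, 12.8 and 4.15 CPM. The resting library was higher in 4 of 4 mice, but the zones overlapped. The means were 34.3 ± 18.7 and 13.9 ± 7.89 CPM (SD, n = 4), with a log2 fold change of 0.95 (SE 0.67, edgeR quasi-likelihood adjusted p = 0.593).

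Of the remaining binding proteins, Igfbp7 was the most abundant and Igfbp6 was not detected. Igfbp7, a secreted relative of the family that binds IGFs weakly, showed 368, 659, 613 and 505 CPM in resting and 522, 527, 517 and 353 CPM in proliferative cartilage. The zones overlapped, and mouse 1 went against the other mice. The means were 536 ± 130 and 480 ± 85.0 CPM (SD, n = 4), with a log2 fold change of 0.14 (SE 0.26, edgeR quasi-likelihood adjusted p = 0.719). Igfbp7 shares 85 exonic bases with Polr2b, a subunit of RNA polymerase II on the opposite strand, which was at 13343 ± 2405 and 5193 ± 739 CPM and was called higher in the resting zone (log2 fold change 1.35, edgeR quasi-likelihood adjusted p = 0.00103). The strand setting of the counting is not given in the sources used here, and in the female mice Tsix, the antisense partner of Xist, held 18683 counts against 1367 for Xist. Of the members and pathway genes named here, Igfbp7, Irs1, Stat3, Stat5a, Sh2b3, Ptpn6 and Igf2 share exonic bases with a gene on the other strand. For these it can therefore not be told apart whether the printed values belong to the gene or to its partner, in part or as a whole. Named genes outside the members and pathway lists were not searched for such partners. The counts of every gene, Airn among them, depend on the same setting, and its effect on them was not tested.

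Igfbp3, the main carrier of IGF-1 in serum, was near the limit of detection. It held 5, 2, 2 and 3 counts in the resting libraries and 2, 0, 0 and 0 in the proliferative libraries, or 15.2, 6.34, 3.98 and 14.7 CPM against 3.88, 0, 0 and 0 CPM. Each resting library was above each proliferative library, the closest being 3.98 and 3.88 CPM. The ratio of summed counts was 8.72, with a counting interval of 1.94 to 80.3, and the log2 fold change was 2.94 (SE 1.57, edgeR quasi-likelihood adjusted p = 0.336). Both proliferative counts came from mouse 1. The log2 fold change was 4.46 without that mouse, and without the block it was 2.67 with all libraries and 4.89 without the proliferative library of mouse 1, uncalled in each fit. Igfbp2, a binding protein of the circulation, held 1 count in the resting library of mouse 2, 2 in that of mouse 6 and 0 in the other 6 libraries, so no fold is given. Igfbp6, which prefers IGF-2, held 0 counts in all 8 libraries. In the fit over all genes with a count, 0 of the 4 members outside the filter that had a count were called and 0 had an unadjusted p below 0.05 by edgeR's quasi-likelihood test, and 6.31% of all genes in that fit were called in either direction. DESeq2 did not call Igf1r or Ghr and gave no adjusted p for Igfbp2 and Igfbp3.

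Dividing by exon length allows the members to be set beside each other. It assumes that reads rise with transcript length, which was not tested for RNA amplified by 2 rounds of in vitro transcription. In the resting zone Igfbp7 led at 444 ± 107 CPM per kb of exon (SD, n = 4), above every other member in every library. Its place in both zones carries the strand limit given above, since its values may belong to Polr2b in part or as a whole. Igfbp4 followed at 34.3 ± 13.4, Igfbp5 at 20.1 ± 9.48, Igf2r at 11.8 ± 2.62, Igf1 at 7.61 ± 3.49, Ghr at 3.79 ± 2.07, Igfbp3 at 3.21 ± 1.83, Igfbp2 at 0.968 ± 1.13 and Igf1r at 0.800 ± 0.178 CPM per kb. From Igfbp4 downward to Igf1r each neighbor overlapped the next in its range over libraries. In the proliferative zone Igfbp7 (397 ± 70.3 CPM per kb) and Igf2r (12.2 ± 2.75) stood apart from each other and from the rest, and Igfbp4 (2.62 ± 3.30), Ghr (1.54 ± 0.872) and Igf1r (1.53 ± 0.248) came next with overlapping ranges. Igfbp5 (0.669 ± 0.773), Igfbp3 (0.310 ± 0.620) and Igf1 (0.179 ± 0.208) were lowest of the members with a count there. The places of the sparse members depend on the division by length. In undivided CPM, Igf1r (13.4) stood above Igfbp3 (10.1) and Igfbp2 (1.79, from 3 counts) in the resting zone, and above Ghr (13.9) and Igfbp4 (11.6) in the proliferative zone at 25.8.

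**Figure D3:**
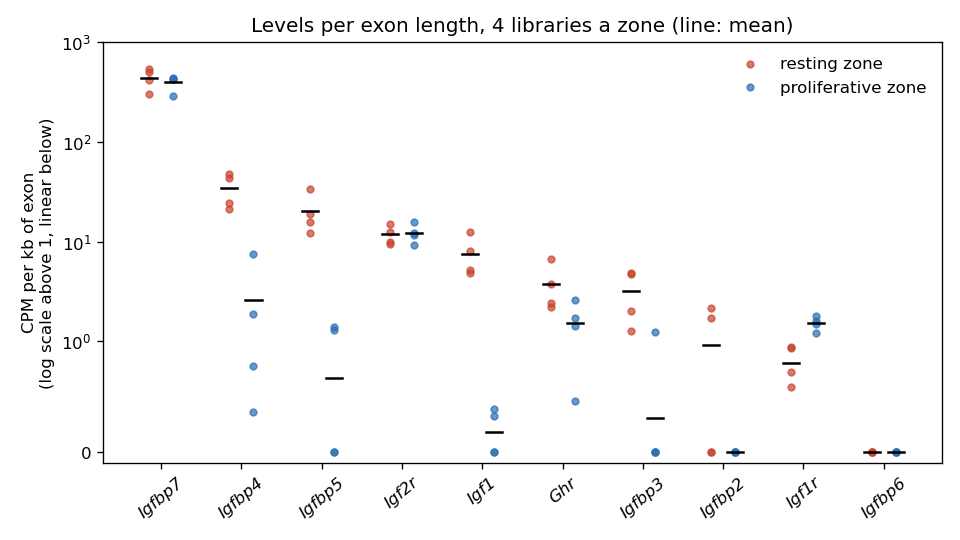
Level of each member per kilobase of annotated exon in each library (points) with the zone mean (line), on an axis that is logarithmic above 1 and linear below. Igfbp7, whose values may belong to Polr2b in part or as a whole, lies above all other members in both zones. Igf1 goes from a mean of 7.61 in the resting zone to 0.179 in the proliferative zone, and Igf1r is the member with more signal in the proliferative zone in every mouse.

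Other genes of the pathway were taken from 4 lists, of ligands and receptors, of proteases and inhibitors acting on binding proteins, of adaptors at the receptor, and of growth hormone and JAK-STAT signaling. Of 51 genes, 42 had a count and 13 were tested. Ctsd was called with the resting zone higher and Grb10 with the proliferative zone higher, beside 10.2% and 6.06% of all tested genes. The median log2 fold change of the 13 was 0.63, beside 0.04 over all tested genes. Mmp14, Htra1, Grb2 and Stat5a were too low in their proliferative libraries alone to pass the filter, and Irs1 in its resting libraries alone. The median depends on how they passed, and it was not tested.

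Among the other ligands and receptors only Ide, the insulin-degrading enzyme, was tested, and it was at 25.6 ± 16.95 CPM (resting) and 29.4 ± 8.06 CPM (proliferative) (log2 fold change -0.23, edgeR quasi-likelihood adjusted p = 0.798). Igf2, the fetal growth factor expressed from the paternal allele, held 5, 5, 16 and 1 counts in the resting libraries and 1, 4, 2 and 2 in the proliferative libraries. Its zones overlapped at 16.9 ± 11.1 and 5.07 ± 2.99 CPM (log2 fold change 1.58, SE 0.94, edgeR quasi-likelihood adjusted p = 0.437, read from the second fit). Without the block the log2 fold change was 1.65 with all libraries and 1.02 without the resting library of mouse 6, uncalled in both. Insulin itself (Ins1 and Ins2), Igfals, Igfbp1, Insrr and Igflr1 held 0 counts in every library.

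Among the proteases and inhibitors, 5 of 12 genes were tested and 1 was called. Ctsd, the lysosomal aspartic protease cathepsin D, was at 149, 133, 103 and 132 CPM in the resting and 48.5, 35.95, 36.8 and 29.0 CPM in the proliferative libraries. The zones were separate, with a log2 fold change of 1.76 (SE 0.36, edgeR quasi-likelihood adjusted p = 0.00386), which was not called without mouse 1 (adjusted p = 0.0204), mouse 2 (0.0137) or mouse 13 (0.0278), where the log2 fold changes were 1.80, 1.70 and 1.62. Mmp14, a membrane metalloproteinase, and Htra1, a secreted serine protease, had log2 fold changes of 1.38 (adjusted p = 0.0541) and 1.19 (adjusted p = 0.0820) by edgeR's quasi-likelihood test, and Mmp2 and Htra3 had 0.20 and 0.07. Mmp14 was called by edgeR's likelihood ratio test without the block (log2 fold change 1.36, adjusted p = 0.00482).

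The pappalysins, which cut Igfbp4 and Igfbp5, and their inhibitor stanniocalcin-2 had few counts and were named after their values were seen. Pappa held 8, 2, 21 and 4 counts in the resting libraries and 0 in every proliferative library, which makes resting expression at least 3.26-fold higher when each proliferative library is set at 3 counts. Pappa2 held 0, 3, 5 and 2 counts in the resting libraries and 0 in the proliferative libraries. Stc2, the stanniocalcin that blocks pappalysins, went the other way, with 0 counts in every resting library and 14, 25, 14 and 7 in the proliferative libraries, which makes proliferative expression at least 3.09-fold higher on the same floor. In the fit over all genes with a count Pappa (edgeR quasi-likelihood adjusted p = 0.000287) and Stc2 (adjusted p = 4.17e-06) were called and Pappa2 (adjusted p = 0.263) was not. Pappa lost its call without mouse 6 (adjusted p = 0.0683), with a fitted log2 fold change of 5.40 against 6.14 in all mice, values that are no bounds because the proliferative zone is at 0.

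Among the adaptors 3 of 16 genes were tested and 1 was called. Grb10, an imprinted adaptor that dampens insulin and IGF-1 receptor signaling, was at 106, 34.9, 121 and 186 CPM in the resting and 462, 565, 811 and 614 CPM in the proliferative libraries. Every proliferative library was above every resting library, and the log2 fold change was -2.58 (SE 0.37, edgeR quasi-likelihood adjusted p = 0.000559). Irs1, the docking protein that links Igf1r to PI3K, was at 24.6 ± 16.0 and 76.0 ± 23.03 CPM without overlap (log2 fold change -1.74, SE 0.50, edgeR quasi-likelihood adjusted p = 0.0241). It was called by edgeR's likelihood ratio test with the block (adjusted p = 0.00276) and without it (0.00529), in the second fit (0.00435), and without the block when the resting library of mouse 6 was left out (0.00714). Irs1 shares 2822 exonic bases with Gm9747 on the opposite strand, which was at 1064 ± 323 and 4764 ± 538 CPM and was called in the same direction (log2 fold change -2.20), so that its own difference cannot be told apart from that of its partner. Grb2, which couples receptors to Ras, was at 58.5 ± 37.5 and 19.4 ± 6.15 CPM (log2 fold change 1.33, edgeR quasi-likelihood adjusted p = 0.0903).

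Grb14, a relative of Grb10 that was named after its values were seen, held 1, 2, 0 and 0 counts in the resting libraries and 10, 22, 29 and 6 in the proliferative libraries. The ratio of summed counts, proliferative over resting, was 15.4 with a counting interval of 5.03 to 76.4 (edgeR quasi-likelihood adjusted p = 0.000441, second fit). The fitted log2 fold change was -3.93, and it was -3.10 without mouse 6 and -4.76 without mouse 2. The call was lost without mouse 6 and under DESeq2.

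In the growth hormone and JAK-STAT list 4 of 13 genes were tested and 0 were called by edgeR's quasi-likelihood test or by DESeq2. An unadjusted edgeR p below 0.05 with the resting zone higher was found for 3, beside 1469 of all 3793 tested genes in either direction. Stat5a, among these 3, was too low in its proliferative libraries alone to pass the filter. Socs2, the feedback inhibitor of growth hormone signaling, was at 94.1 ± 18.9 and 42.2 ± 16.3 CPM without overlap (log2 fold change 1.19, SE 0.38, edgeR quasi-likelihood adjusted p = 0.0379). Stat5a, a transcription factor that acts on Igf1 below the growth hormone receptor, was at 49.9 ± 18.3 and 20.4 ± 4.05 CPM (log2 fold change 1.20, adjusted p = 0.102 by the same edgeR test). Stat3 and Sh2b3 had log2 fold changes of 0.63 and 0.52. Stat3 and Stat5a share 72 exonic bases on opposite strands, and Sh2b3 shares 99 with Atxn2, so the values of these 3 genes carry the strand limit given for Igfbp7. Ptpn6, a phosphatase of blood cells that was named after its values were seen, held 13, 15, 8 and 7 counts in the resting libraries and 2, 0, 0 and 0 in the proliferative libraries (edgeR quasi-likelihood adjusted p = 0.000127, second fit). Its fitted log2 fold change was 4.59, and it was 6.60 without mouse 1 and 4.00 without mouse 2, where the call was lost (adjusted p = 0.0122). Of the 29 pathway genes outside the filter that had a count, Pappa and Ptpn6 were called with the resting zone higher, and Stc2 and Grb14 with the proliferative zone higher, beside 6.31% of all genes in that fit called in either direction.

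**Figure D4:**
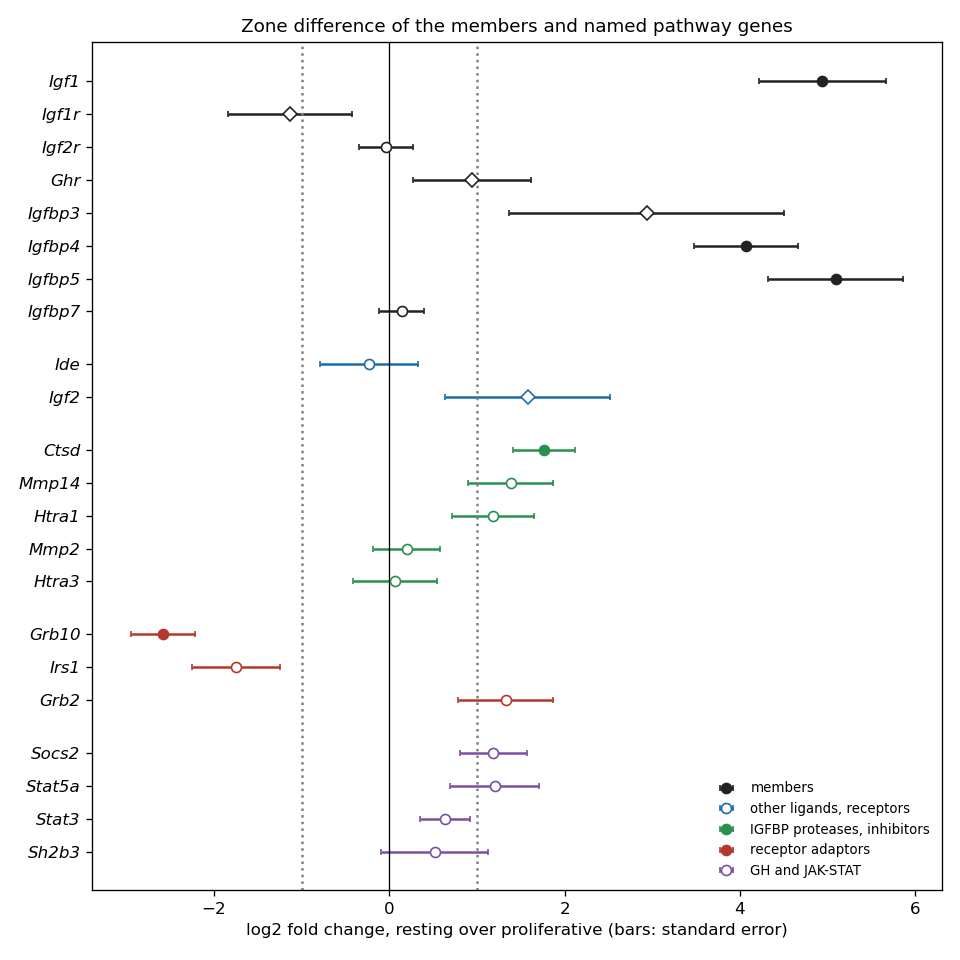
Log2 fold change (resting over proliferative) with its standard error for the members with more than 3 counts in a library and the named pathway genes; circles are genes that passed the filter, diamonds are read from the fit over all genes with a count, filled symbols are called, and dotted lines mark a log2 fold change of 1 in either direction. Igf1, Igfbp4, Igfbp5 and Ctsd are called on the resting side and Grb10 on the proliferative side.

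The tested genes whose levels followed Igf1 most closely over the 8 libraries, by Pearson correlation of log2(CPM + 1) among 3788 genes, were Zfp36l1, an RNA-binding protein that promotes mRNA decay (r = 0.984), Scara3, a scavenger receptor-like protein (r = 0.98), and Tfrc, the transferrin receptor (r = 0.979). Those most like Igf1r were Mpnd (r = 0.977), Jmjd8 (r = 0.977) and Ptch1, the hedgehog receptor (r = 0.958). The 8 points are 2 zones of 4 mice and share the zone difference, so these values describe likeness and carry no test. Zfp36l1 was at 207 ± 52.6 and 17.9 ± 4.78 CPM in the 2 zones, and Ptch1 at 23.9 ± 12.02 and 86.9 ± 16.1 CPM (SD, n = 4).

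**Figure D5:**
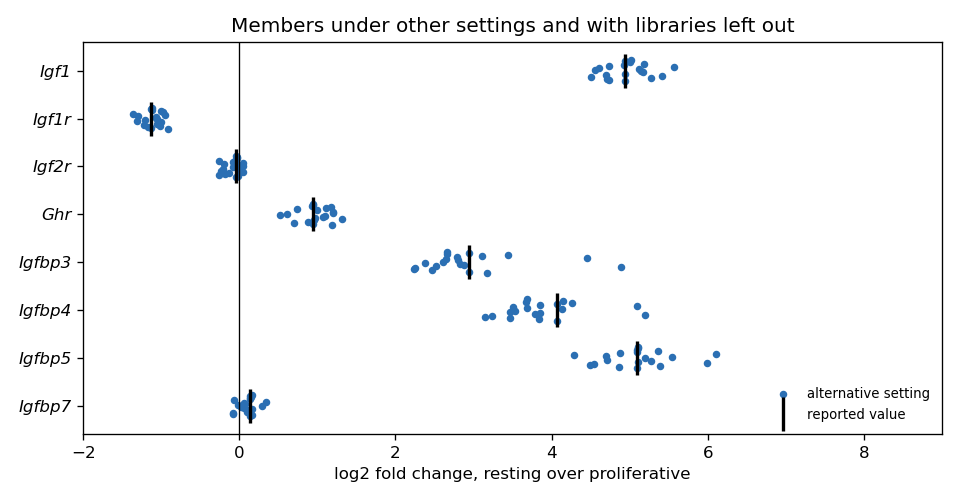
Log2 fold change (resting over proliferative) of the members with more than 3 counts in a library, as reported (black bar) and under each other setting or with libraries left out (points, spread vertically for legibility). The points of Igf1, Igfbp4 and Igfbp5 stay above 3.1, those of Igf1r stay below 0, and those of Igf2r and Igfbp7 lie on both sides of 0.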

How the data were processed

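RNA from 8 laser microdissected samples was amplified by 2 rounds of in vitro transcription. Per the labels and the study's methods, reads were trimmed with BBDuk, aligned with HISAT2 2.1.0 to GRCm38 and counted by HTSeq 0.11.2 on Ensembl genes. The deposited counts are whole, unnormalized read counts per gene and library; the authors' table of fold changes and p-values was used for gene symbols only. The members and lists were chosen with earlier results of these data known.

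Counts were tested with edgeR 4.0.16 (R 4.3.3): TMM factors, filterByExpr by zone (minimum count 10, minimum total 15), quasi-likelihood fit with mouse and zone, and Benjamini-Hochberg adjustment over all tested genes. Members failing the filter were read from the same fit over all genes with a count. The study names a likelihood ratio test and does not mention a block. Here libraries were paired because each mouse gave both zones. Deviations from the zone means correlated within mice at 0.169, 0.019, 0.141 and 0.046 (mice 1, 2, 6 and 13), and between mice at -0.063 to -0.010 on average. Standard errors are the log2 fold change over the root of the F statistic. Counting intervals are exact (95%). The script was tested on simulated data.

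The rule for naming genes took the members, and Igf2 and up to 5 tested genes of lowest adjusted p per pathway list. It also took 3 genes most correlated with Igf1 and with the proliferative-side member of lowest adjusted p. The top 2 markers per cell type by level, not all of them printed, and opposite-strand neighbors sharing exon bases completed it. Pappa, Pappa2, Stc2, Grb14, Ptpn6 and the called endothelial markers were named after their values were seen. Alternatives covered the block, the test, DESeq2 1.42.0, the scaling, the filter, the threshold and each library. Coordinates are from GENCODE M21 and promoter windows from RefSeq, both GRCm38, and all 10 members matched. No pair of libraries of a zone agreed within sampling noise. The samples of a zone came from separate mice.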

Additional observations from a re-analysis of the deposited data

Results flagged for a closer look

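Values that stood apart from the other 3 libraries of a zone were looked for in 45 groups of 4 libraries (members and named pathway genes in each zone), and chance flags about 1 in 20 such groups. Igfbp3 in the proliferative zone was at 3.88 CPM in mouse 1, from 2 counts, and at 0 in the other 3 mice. Igfbp7 in the proliferative zone was at 353 CPM in mouse 13, the shallowest library of that zone, against 517 to 527 CPM in the other 3 mice.

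The zone difference was compared between the 2 female and the 2 male mice by the interaction term of edgeR's quasi-likelihood test. None of the tested members passed (edgeR quasi-likelihood adjusted p = 0.995 for each of Igf1, Igf2r, Igfbp4, Igfbp5 and Igfbp7), and 0 of the 3793 tested genes had an adjusted p below 0.05. An unadjusted p below 0.05 was found for 190 of the 3793, about 1 in 20, which is the share that chance gives.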

How the results depend on the processing

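Igf1, Igfbp4 and Igfbp5 were called in the same direction under every setting that kept them, with log2 fold changes of 4.51 to 5.57, 3.15 to 5.19 and 4.29 to 6.10 and adjusted p-values up to 0.00925, 0.00967 and 0.00925. The number of members called was 3 throughout, except for 0 when 10 counts were required in every library, a filter that takes these genes out. Without the replicate block 682 genes were called in place of 615, and the log2 fold changes of Igf1, Igfbp4 and Igfbp5 were 5.01, 3.68 and 5.10. None of the members outside the filter was called under any setting, although DESeq2 gave no adjusted p for Igfbp2 and Igfbp3, which it therefore could not call. The scaling factors of the tested genes, applied to the fit over all genes with a count after the data had been seen, changed no call.

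Over all genes, the likelihood ratio test called 953 (396 proliferative), and without the replicate block 952 (386 proliferative, 4 pathway genes). All genes with a count gave 1104 (659 resting, 445 proliferative, 7 pathway genes), 10 counts in every library 296 (143 resting, 153 proliferative, 1 pathway gene), and an adjusted p below 0.05 gave 998 (584 resting, 414 proliferative, 4 pathway genes). Leaving out a mouse or a library gave 222 to 821 calls (151 to 472 resting, 71 to 349 proliferative), with the fewest without mouse 13, and 1 to 5 pathway genes. Upper quartile factors and the fit over all genes with a count each moved the log2 fold changes of the tested genes by a median of -0.22. Under these 2 settings Igfbp7 (-0.073 and -0.077), Mmp2 (-0.019 and -0.025) and Htra3 (-0.15 and -0.17) changed sign. With mice or libraries left out, uncalled differences near 0 fell on both sides of it: Igf2r ranged from -0.24 to 0.055, Igfbp7 from -0.083 to 0.34, Ide from -0.44 to 0.13, Mmp2 from -0.21 to 0.44 and Htra3 from -0.33 to 0.41. The cause was not tested.

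Depth limits the sparse members: with 4.81 to 14.7 CPM as the level that a count of 0 allows, Igfbp2 and Igfbp6 could not be compared between the zones, and the difference of Igf1r rests on 2 to 19 counts per library.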
